A study of Mus musculus with 7 samples.

Results

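Neutrophils washed out of the inflamed joint were compared with neutrophils taken from the blood of the same kind of arthritic mice, to ask what differs between circulating cells and cells that have reached the joint. The cells were those of the experimental inflammation library whose hashtag condition was K/BxN joint or K/BxN blood and whose assigned ImmGen population began with GN (granulocyte). There were 2857 such cells from joint and 814 from blood, together 3671 of the 21763 cells of all 7 libraries. After the limits on mitochondrial UMIs (at most 5%) and on genes per cell, 2796 joint and 802 blood cells were kept. A unique molecular identifier (UMI) marks 1 captured transcript molecule.

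All cells of this library came from male C57BL/6J mice aged 8 weeks with no transgene named in the labels, and were sorted as live CD11b+ Ly6G+ cells. For K/BxN serum transfer arthritis, 150 µl of serum pooled from K/BxN mice was given intraperitoneally on day 0 and day 2. Mice were scored on day 6 and killed on day 7, blood was drawn from the heart, and joint cells were obtained by lavage. The labels place the lavage at the femorotibial joint, whereas the study's methods name another joint, so that the site is given here only as the joint. The other conditions of the library were unstimulated healthy blood, and the airway lavage (called lung) and the peritoneal lavage of mice that had received 25 ng of IL-1β at that site 3 hours earlier. By the study's methods, cells of 3 mice were pooled per condition. Each condition is therefore 1 pool in 1 library, no spread between mice can be given, and no test was possible. Intervals below are 95% intervals for counting error only.

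Neutrophils are short-lived granulocytes that are loaded with granule proteins in the bone marrow, circulate in the blood, and enter tissue along gradients of chemoattractants. In K/BxN arthritis, antibodies carried by the transferred serum form immune complexes in the joint, and neutrophils are the main cells of the joint fluid and are required for the swelling. Tissue neutrophils are known to make chemokines and lipid mediators that call in further leukocytes, and also proteins that dampen the same signals.

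Cells from the joint and blood were of like depth. The median was 3518.5 UMIs and 1131 genes per cell in joint, against 3590.5 UMIs and 1163 genes in blood, and the summed UMIs were 9937604 and 2654015. Cells under 1000 UMIs made up 3.83% of joint cells (107 of 2796, interval 3.15% to 4.61%) and 16.5% of blood cells (132 of 802, interval 13.96% to 19.2%). Of the 132 shallow blood cells, 118 were assigned to the population GN.UrAc.PC. The 15 neutrophil markers checked were all found in both compartments. Levels are given as UMIs per 1000000 (CPM) of the summed cells, with the joint total scaled by the TMM factor of 0.928 relative to blood, and a gene was measured when the mean of both levels was at least 10 CPM.

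Markers of other cell types were low, and 1 gene made up most of the sum of several types. The 11 monocyte or macrophage markers summed to 324 CPM in joint and 338 CPM in blood, of which Ly6c2 gave 1647 of 2993 joint UMIs and 487 of 896 blood UMIs. The complement genes C1qa, C1qb and C1qc, which mark tissue macrophages, had 28, 39 and 20 UMIs in joint and 0, 1 and 1 in blood. The 8 markers of synovial fibroblasts summed to 66.5 CPM in joint and 2.64 CPM in blood, and 559 of the 613 joint UMIs were Pdpn, while Pdgfra and Thy1 were at 0. The summed level of B-cell markers was 55.2 CPM in joint and 125 CPM in blood, nearly all of it Ighm. T-cell markers came to 13.7 and 21.1 CPM. For cartilage or bone the sums were 96.9 and 59.2 CPM, with Runx2 at 893 of 894 joint UMIs, for eosinophils 26.3 and 11.3 CPM with Epx and Prg2 at 0, and for NK cells, erythroid cells, platelets, dendritic cells, endothelial cells and mast cells at most 11.3 CPM in either compartment. At least 1 UMI of a monocyte or macrophage marker was seen in 1331 of 2796 joint cells and 424 of 802 blood cells, and of a fibroblast marker in 435 and 7, while 3 or more monocyte or macrophage markers were seen in 33 and 12 cells. Where only the 154 joint and 3 blood cells with a UMI of C1qa, C1qb, C1qc, Cx3cr1, F13a1, Ccr2, Fcgr1, Col1a1, Col1a2, Col3a1, Prg4 or Dcn were left out, 12 genes that exclude Ly6c2, Csf1r and Pdpn, 753 genes were at least 2-fold higher and 343 at least 2-fold lower in joint.

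Of 5298 measured genes, 762 (14.4%) were at least 2-fold higher in joint and 341 (6.44%) at least 2-fold lower. These shares are the background for the counts given below for each gene list. The difference was lopsided among large ratios. At least 4-fold, 249 genes were higher and 30 lower, and at least 8-fold, 109 were higher and 1 lower. The median gene lay at a log2 ratio of 0.077, and the middle of the distribution, from the first to the third quartile, ran from -0.38 to 0.59. The plot of joint against blood levels shows the long upper tail against a short lower one.

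**Figure D1:**
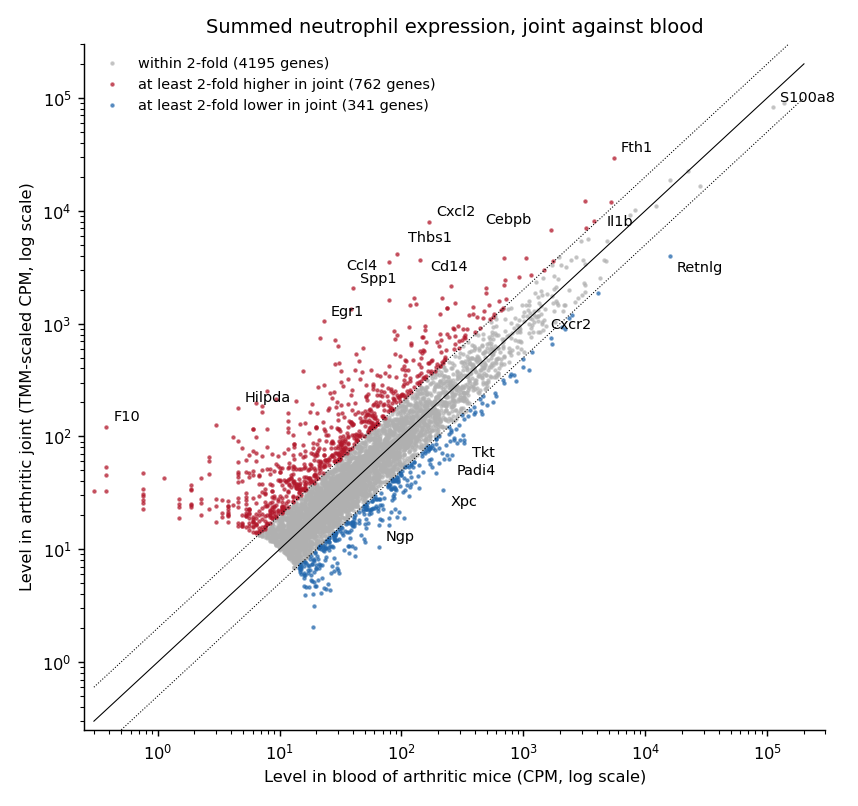
Each point is 1 of the 5298 measured genes, with its level in blood on the x axis and its TMM-scaled level in joint on the y axis (CPM, both log scales, 1 sum over cells per compartment; a gene at 0 in blood sits at the left edge). Red points are the 762 genes at least 2-fold higher in joint, blue points the 341 at least 2-fold lower, dotted lines mark 2-fold, and the tail above the diagonal reaches far higher than the one below it.

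The promoters of a few genes that carry the comparison are shown here, chosen because they hold matches to known short DNA motifs. Sequences are the 250 bases before the start site of RefSeq on build GRCm38.p6, 5′ to 3′ on the strand of the gene, and capitals mark motif matches on either strand. The motifs searched were the NF-kB consensus, the serum response factor box known as CArG, TGANTCA for AP-1, TGACGTCA for the cAMP response element, the interferon-stimulated response element (ISRE), TTGCNNAA for C/EBP, and ACGTGC for hypoxia-inducible factor. Cxcl2 (chr5:90903649-90903898, plus strand) and Cxcl3 (chr5:90785851-90786100, plus strand) are neighbouring chemokine genes, and in each the capitals mark overlapping NF-kB matches. In Cxcl10 (chr5:92348890-92349139, minus strand) they mark, in this order, an ISRE, 2 NF-kB matches and an AP-1 match. Isg15 (chr4:156200819-156201068, minus strand) shows 3 overlapping ISRE matches, Egr2 (chr10:67537619-67537868, plus strand, 1 of several start sites) a CArG box, and Ngp (chr9:110419558-110419807, plus strand), a granule gene that was lower in joint, 2 C/EBP matches.
Cxcl2: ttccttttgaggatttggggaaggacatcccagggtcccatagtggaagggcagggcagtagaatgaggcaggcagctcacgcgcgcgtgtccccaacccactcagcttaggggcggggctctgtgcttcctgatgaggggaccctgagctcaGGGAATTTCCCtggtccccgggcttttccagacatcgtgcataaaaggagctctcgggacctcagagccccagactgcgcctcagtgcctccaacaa
Cxcl3: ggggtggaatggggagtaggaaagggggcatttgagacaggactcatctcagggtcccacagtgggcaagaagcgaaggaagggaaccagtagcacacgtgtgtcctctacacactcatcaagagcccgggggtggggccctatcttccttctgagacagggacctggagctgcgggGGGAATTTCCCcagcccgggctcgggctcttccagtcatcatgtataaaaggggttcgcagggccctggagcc
Cxcl10: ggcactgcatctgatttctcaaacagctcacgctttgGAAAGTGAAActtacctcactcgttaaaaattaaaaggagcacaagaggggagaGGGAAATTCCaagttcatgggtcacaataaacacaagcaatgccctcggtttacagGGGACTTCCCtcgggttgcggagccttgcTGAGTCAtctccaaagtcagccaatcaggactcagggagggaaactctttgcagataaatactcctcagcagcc
Isg15: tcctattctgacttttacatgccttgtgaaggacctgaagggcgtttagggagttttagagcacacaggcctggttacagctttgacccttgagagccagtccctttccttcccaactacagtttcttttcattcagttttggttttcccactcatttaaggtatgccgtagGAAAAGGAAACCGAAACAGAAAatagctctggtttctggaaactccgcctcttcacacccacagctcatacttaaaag
Egr2: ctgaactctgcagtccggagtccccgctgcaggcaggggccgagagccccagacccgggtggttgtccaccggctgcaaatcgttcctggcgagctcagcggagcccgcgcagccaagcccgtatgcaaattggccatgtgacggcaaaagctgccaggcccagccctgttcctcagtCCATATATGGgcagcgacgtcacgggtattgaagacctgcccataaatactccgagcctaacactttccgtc
Ngp: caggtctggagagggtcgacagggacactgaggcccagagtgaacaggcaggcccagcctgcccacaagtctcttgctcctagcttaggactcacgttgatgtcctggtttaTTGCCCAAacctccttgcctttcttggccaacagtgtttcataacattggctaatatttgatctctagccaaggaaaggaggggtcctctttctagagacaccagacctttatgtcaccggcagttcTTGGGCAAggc

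Promoter windows were found for 600 of the 762 genes higher in joint, 251 of the 341 lower genes and 4143 of all measured genes, some with several start sites. An NF-kB match stood in 7.64% of the windows of higher genes and 4.90% of those of lower genes, beside 4.86% of the windows of measured genes and 3.90% of all 32851 windows of the table. For AP-1 these shares were 7.90%, 3.17%, 4.62% and 6.75% in the same order, and for the hypoxia motif 8.54%, 4.03%, 6.56% and 4.92%. The C/EBP motif stood in 7.26% of windows of higher genes and 11.2% of those of lower genes, beside 7.73% for measured genes and 9.56% of all windows. An ISRE match was in 15 of the 35 windows of measured interferon-stimulated genes (42.9%), against 3.69% for higher genes, 3.17% for lower genes, 2.98% for measured genes and 2.98% of all windows. The cAMP response element stood in 3.82% of windows of higher genes, 1.44% of those of lower genes, 3.04% for measured genes and 1.55% of all windows, and the CArG box in 1.78%, 0.865%, 1.22% and 1.47%. Rasgrp2 and Adam19, lower in joint, had an NF-kB match in 1 of their windows, and Ccl3, Tnf, Il1b, F10 and Ccl6 had no match to any of the motifs. A match is only a run of letters in this window.

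Chemokines, the secreted proteins that steer leukocytes, held 3 of the 12 highest ratios. Cxcl2, a ligand of the neutrophil receptor CXCR2, had 73760 UMIs in joint and 447 in blood, or 7997 and 168 CPM, a ratio of 47.5 (interval 43.3 to 52.2). Ccl4, a chemokine that draws monocytes and lymphocytes, stood at 3489.8 CPM in joint and 79.5 CPM in blood (43.9-fold, interval 38.3 to 50.5). Ccl3, a ligand of CCR1, stood at 1354 and 38.4 CPM (35.2-fold, interval 29.0 to 43.2). All 3 measured CXC chemokines and 4 of 5 CC chemokines were at least 2-fold higher, the exception being Ccl6, a chemokine abundant in resting neutrophils, at 1853 CPM in joint and 4087 CPM in blood, 2.21-fold lower (interval 2.15 to 2.26). Cxcl3 was 12.4-fold higher (603 against 48.6 CPM), though reads of such close paralogs may be split between them.

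Some chemokines came from few cells. Ccl2, which draws monocytes through CCR2, had 491 joint UMIs in 58 of 2796 cells, with 92 in 1 cell, and 1 UMI in blood. Cxcl10, an interferon-induced ligand of CXCR3, had 914 UMIs in 103 joint cells, with 167 in 1 cell, and 11 UMIs in 11 blood cells. By contrast, with each cell thinned to 1000 UMIs, Cxcl2 was seen in 80.9% of joint cells and 14.8% of blood cells (92.3% and 41.0% at full depth). Ccl4 was seen in 44.7% and 8.51%, and Ccl3 in 39.8% and 3.13%. In thinned joint cells the 269 highest of 2689 cells held, for each gene in turn, 35.8% of Cxcl2 UMIs, 65.8% of those of Ccl4 and 60.6% of those of Ccl3, where S100a8, which nearly every cell carries, had 21.4%.

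Of the IL-1 family and its inhibitors, 5 of 9 measured genes were at least 2-fold higher in joint and none 2-fold lower. Over all cells the ratios of the inhibitors Il1r2 and Il1rn were higher than that of Il1b. Another inhibitor gene, Il18bp, was the lowest of the list (log2 ratio -0.30). Il1r2, the decoy receptor that binds IL-1 without signalling, was at 2139 CPM in joint and 253 CPM in blood (8.46-fold, interval 7.83 to 9.15). Il1rn, the soluble receptor antagonist, was at 1673 and 214 CPM (7.82-fold, interval 7.19 to 8.51). Il1b itself was at 8099.5 and 3782 CPM, 2.14-fold higher (interval 2.098 to 2.187). It lay just under 2-fold without TMM scaling (log2 ratio 0.99) and with thinned cells (log2 ratio 0.94), and at a log2 ratio of 0.62 in the cells assigned to the blood population GN.Bl. Il1f9, an IL-36 cytokine, was at 433 and 486 CPM. Of 9 measured TNF family genes 3 were at least 2-fold higher, among them Tnf itself (568 UMIs in joint and 14 in blood, 11.7-fold) and the TNF receptor gene Tnfrsf1b (3.46-fold, 496 against 144 CPM).

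The list of other secreted factors also holds enzymes that make secreted mediators, such as Ptgs2 and Hdc. It had the largest share of higher genes among lists of over 5 members, with 11 of 14 at least 2-fold higher and none lower. Spp1, which encodes osteopontin, a matrix protein that also binds integrins and CD44, had 19026 UMIs in joint and 106 in blood, or 2063 and 39.9 CPM (51.6-fold, interval 42.7 to 63.1). Thbs1, which encodes thrombospondin 1, a protein that can activate TGF-β, was at 4107 and 91.6 CPM (44.9-fold, interval 39.5 to 51.1). The blood levels of both genes were near those of healthy blood (33.0 and 85.4 CPM). Csf1, the growth factor of macrophages and osteoclasts, was 11.52-fold higher (1502 against 130 CPM, though with a log2 ratio of 0.67 in GN.Bl cells alone), Ptgs2, the inducible enzyme of prostaglandin synthesis, 24.7-fold (708 against 28.6 CPM), Osm, a cytokine of the IL-6 family, 7.14-fold (325 against 45.6 CPM), and Hdc, the enzyme that makes histamine, 3.43-fold (2435 against 711 CPM, with a log2 ratio of 0.88 in GN.Bl cells alone). Tgfb1 was at 74.9 CPM in joint and 115 CPM in blood.

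F10, which encodes coagulation factor X, had the highest ratio of all genes named by size. There were 1128 UMIs in 427 joint cells and 1 UMI in blood, a ratio of 325 with a counting interval from 58.1 to 12831. A UMI was seen in 15.3% of joint cells and 0.125% of blood cells, and healthy blood had 5 UMIs. All conditions shared 1 library and its free RNA. The blood level of F10 was 0.308% of the joint level, that of Spp1 1.94% and that of Cxcl2 2.11%.

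**Figure D2:**
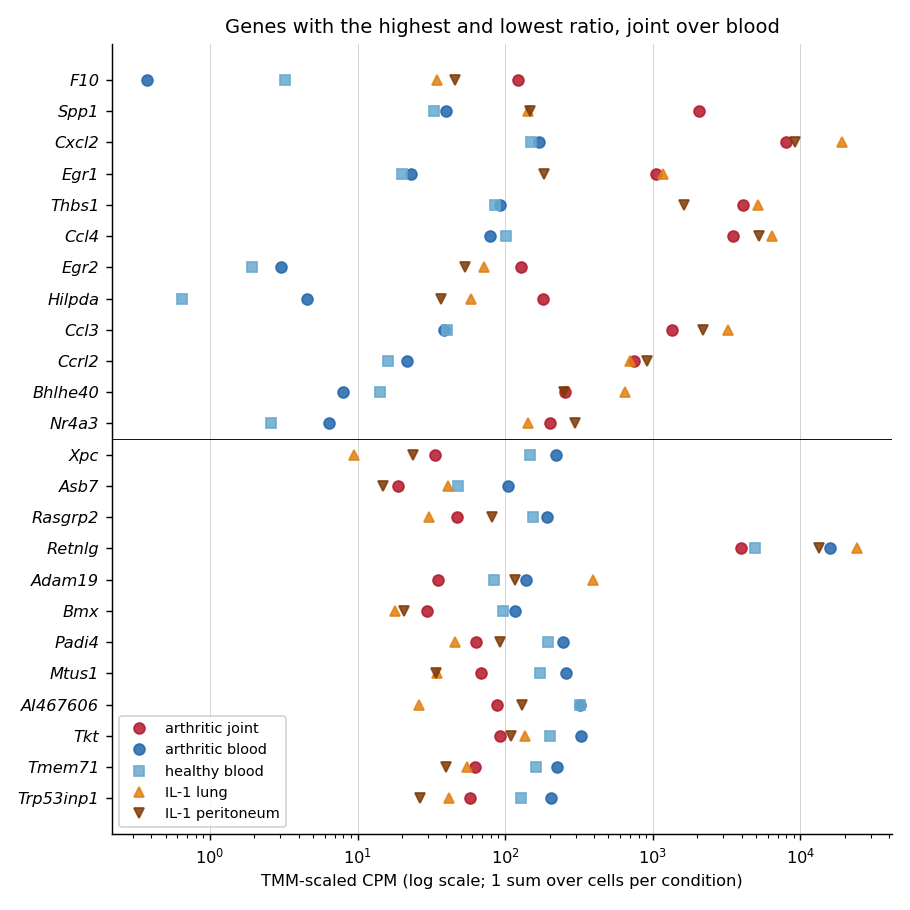
Levels (TMM-scaled CPM, log scale, 1 sum over cells per condition) of the 12 genes with the highest and the 12 with the lowest ratio of joint over blood, above and below the line. In the upper part both bloods lie far left of the joint, and in the lower part the joint lies left of both bloods for each gene, with Retnlg in joint at 3970.3 CPM and in healthy blood at 4947 CPM.

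On the list of chemoattractant receptors, which also holds Hcar2, genes were higher or near their blood level. There 7 of 13 measured genes were at least 2-fold higher and none lower. Ccrl2, an atypical receptor that presents chemerin, was 34.7-fold higher (746 against 21.5 CPM), and Hcar2, a receptor for hydroxybutyrate and niacin, 8.67-fold (794 against 91.6 CPM). Cxcr4, the receptor that holds neutrophils in the marrow, was at 2202 CPM in joint and 699 CPM in blood (3.15-fold, interval 3.00 to 3.31), with a log2 ratio of 0.34 in GN.Bl cells alone. Cxcr2, which brings neutrophils into tissue, was at 1512 and 1765 CPM, 1.17-fold lower (interval 1.13 to 1.21). Ccr1 and C5ar1, receptors of chemokines and of complement C5a, were 2.28-fold and 2.06-fold higher, the latter being under 2-fold without TMM scaling (log2 ratio 0.94).

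Among 16 cytokine receptors 4 were at least 2-fold higher, led by Tgfbr1 (3.17-fold, 128 against 40.3 CPM), while Csf3r, the receptor of the granulocyte growth factor G-CSF, was at 2296 and 3122 CPM. On the pattern recognition list, which also holds the enzyme gene Padi4, 9 of 22 genes were at least 2-fold higher and 2 lower. Cd14, the co-receptor of bacterial lipopolysaccharide, led them with 3639 CPM in joint and 141 CPM in blood (25.8-fold, interval 23.3 to 28.6), and was seen in 70.5% and 12.1% of thinned cells. The lowest was Padi4, the enzyme that citrullinates histones when neutrophils release DNA nets, with 63.0 CPM in joint and 245 CPM in blood (3.89-fold lower, interval 3.47 to 4.36). Of 17 C-type lectin, SIRP and CD300 genes 6 were higher and 1 lower. Clec4n, which encodes the fungal receptor dectin-2, was 21.0-fold higher (632 against 30.1 CPM), and Clec12a, an inhibitory receptor, was 3.09-fold lower (48.4 against 150 CPM).

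Of 15 immediate early transcription factors, which switch on rapidly after a signal, 9 were at least 2-fold higher and none lower. Egr1 had 9633 UMIs in joint and 61 in blood (45.4-fold, interval 35.3 to 59.4), and Egr2 had 1172 and 8 (42.2-fold, interval 21.3 to 97.9). Junb, the most abundant of the group, was at 2328 and 1267 CPM, a ratio of 1.84, and Jund at 910 and 1162 CPM. Joint cells were washed out whereas blood was drawn, and the compartment and the way of sampling cannot be told apart. In the IL-1 lavages, Egr1 was at 1169 CPM in lung and 183 CPM in peritoneum.

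The NR4A nuclear receptors were in the same direction. Nr4a3 was at 199.6 CPM in joint and 6.41 CPM in blood (31.2-fold, interval 19.4 to 53.6) and Nr4a1 at 384 and 31.7 CPM (12.1-fold), while Klf2, which keeps leukocytes quiescent, was at 755 and 1161 CPM. Of 20 factors of granulocyte development 9 were at least 2-fold higher and 2 lower. Bhlhe40, a repressor induced by cytokines, was 32.2-fold higher (255 against 7.91 CPM), and Cebpb, the C/EBP factor of emergency granulopoiesis, was at 6785 and 1671 CPM (4.06-fold, interval 3.94 to 4.19). Hmgb2, a chromatin protein, was 2.25-fold lower (751 against 1693 CPM).

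Of 17 NF-kB subunits and feedback genes 9 were at least 2-fold higher and none lower. Nfkbid and Nfkbia, inhibitors that NF-kB itself induces, were 4.97-fold (362 against 72.7 CPM) and 3.10-fold higher (761 against 246 CPM), while the co-activator gene Bcl3 was at 79.2 and 81.0 CPM. Among phosphatases and mRNA decay factors 6 of 13 were at least 2-fold higher, with Dusp5 at 9.64-fold. Of 26 genes of survival and apoptosis 12 were higher and 1 lower. Bcl2a1b, of the anti-apoptotic A1 family, was 24.6-fold higher (379 against 15.4 CPM), and Bcl2a1d, a near-identical copy with which it may share reads, 25.0-fold. Mcl1, the most abundant survival gene of neutrophils, was at 3681 and 2459 CPM (1.497-fold). Its log2 ratio was -0.0847 in 1 of the 9 alternative settings described below. Trp53inp1, a p53 target, was 3.53-fold lower.

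Of 35 interferon-stimulated genes 21 were at least 2-fold higher and 1 lower, with a median log2 ratio of 1.17 against 0.077 over all measured genes. Rsad2, which encodes the antiviral protein viperin, was at 945 CPM in joint and 155 CPM in blood (6.10-fold, interval 5.53 to 6.76), Isg15 at 870.01 and 157 CPM (5.55-fold, interval 5.03 to 6.14), and Ifitm2, the most abundant, at 5596 and 3391 CPM (1.65-fold). Irf1, a factor of the interferon response, was 2.26-fold lower (85.6 against 194 CPM). The 269 highest thinned joint cells held 81.7% of Rsad2 UMIs.

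Of 28 genes of lysosomes and cathepsins 20 were at least 2-fold higher and none lower. Ctsb, the protease cathepsin B, was 9.91-fold higher (862 against 87.0 CPM), and Ctsd, the most abundant, 2.79-fold (2592 against 928 CPM). Of 33 genes of glycolysis and hypoxia 17 were higher and 1 lower. Hif1a, the oxygen-regulated factor, was 4.01-fold higher (422 against 105 CPM), and Slc16a3, the exporter of lactate, 3.81-fold (1875 against 492 CPM), while the glycolytic enzyme gene Gpi1 was 2.62-fold lower (192 against 502 CPM). Hilpda, a lipid droplet protein induced by hypoxia, was 39.9-fold higher (180.3 against 4.52 CPM) among 6 of 12 lipid genes that were higher.

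Irg1, which makes the antibacterial metabolite itaconate, was at 1604 CPM in joint and 78.7 CPM in blood (20.4-fold, interval 17.8 to 23.5). Fth1, the heavy chain of the iron store ferritin, was one of the most abundant transcripts of joint cells at 29523 CPM, against 5513 CPM in blood (5.35-fold, interval 5.27 to 5.45). Of 18 ferritin and antioxidant genes 9 were higher and 1 lower, the latter being Gpx1 (2.05-fold lower, 483 against 988 CPM). In GN.Bl cells alone Fth1 was within 2-fold (log2 ratio 0.62), and the median of this list had the other sign. Cstb, an inhibitor of cathepsins, was 13.3-fold higher (1691 against 127 CPM), while the other 11 measured S100 and stefin genes lay within 2-fold.

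Of 5 measured genes on the MHC class II list 4 were at least 2-fold higher, and only 1 of these, H2-Eb1, encodes a chain of the class II molecule. It had 424 UMIs in 215 joint cells and 1 UMI in blood. The others were Cd80, a co-stimulatory ligand of T cells, at 87.3 CPM in joint and 18.8 CPM in blood (4.63-fold), the lysosomal protease gene Ctss at 91.4 and 30.5 CPM (2.99-fold), and Cd74, the invariant chain, at 24.4 and 10.9 CPM (2.23-fold, interval 1.51 to 3.41). The genes of this group were named after their values were seen. The chains H2-Aa and H2-Ab1 were under the limit for a measured gene and are not in the count, with 171 and 151 UMIs in joint against 1 and 0. With the 154 joint cells left out that held a UMI of the 12 genes named above, H2-Eb1 was at 45.0 CPM in joint in place of 46.0 CPM. Of the genes read this way Cxcl10 changed most, from 99.1 to 76.9 CPM. Cells with a UMI of Ly6c2, Csf1r or Pdpn alone remained in that setting, and the part of other cell types in these values was not tested.

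**Figure D3:**
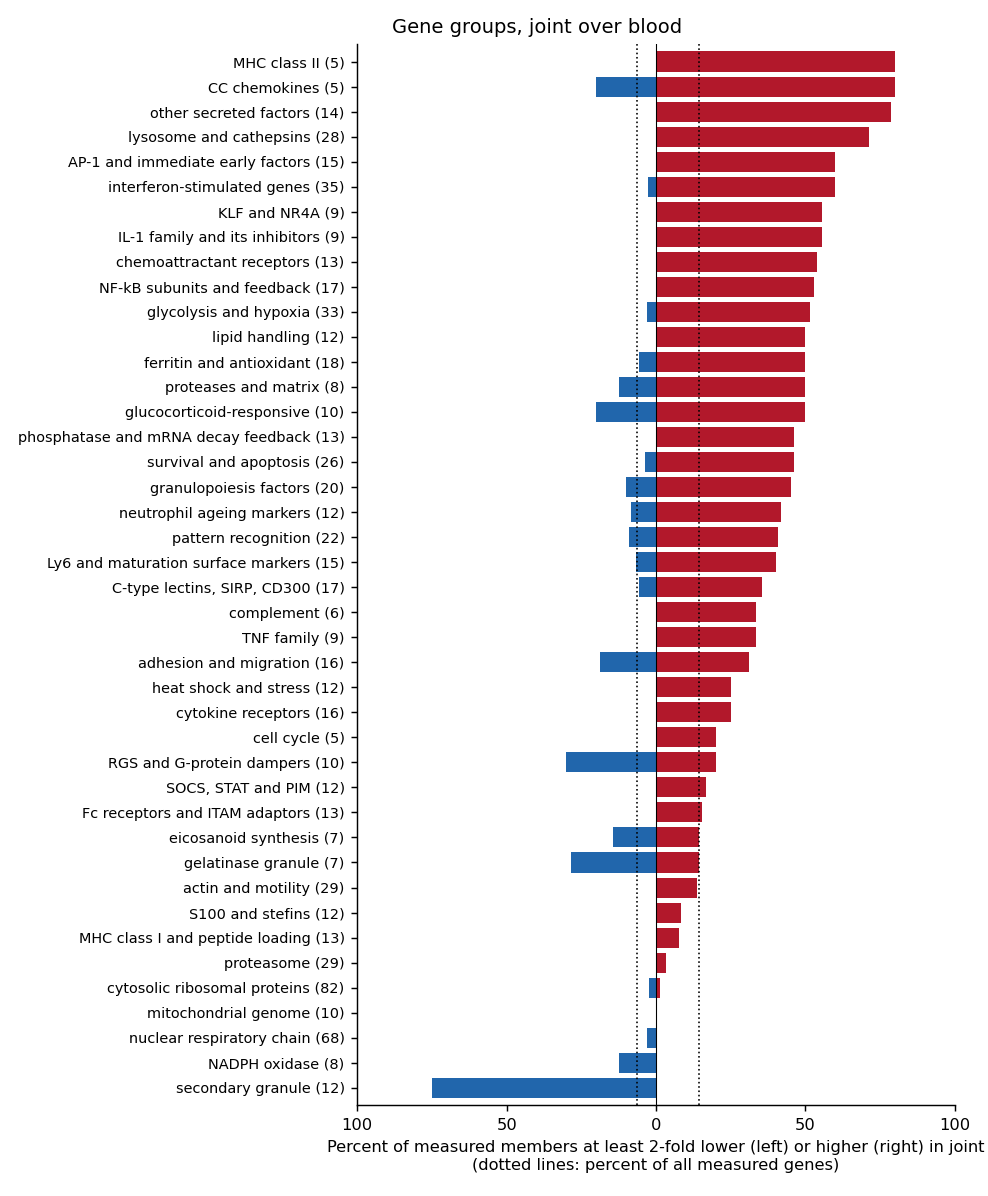
For each gene group with at least 5 measured members (their number in brackets), bars give the percent of members at least 2-fold higher (red, right) or lower (blue, left) in joint, and dotted lines the percent of all measured genes (14.4 and 6.44). The secondary granule group stands alone at the bottom with 9 of 12 members lower and none higher.

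Genes of secondary granules, which are transcribed while neutrophils mature in the marrow, differed the other way. Of 12 measured genes of secondary granules 9 were at least 2-fold lower in joint and none higher. Lcn2, the iron-binding lipocalin, was at 891 CPM in joint and 2184 CPM in blood (2.45-fold lower, interval 2.37 to 2.53), Mmp8, a collagenase, at 310 and 864 CPM (2.78-fold lower, interval 2.63 to 2.94), and Ngp at 16.5 and 64.8 CPM (3.93-fold lower, interval 3.14 to 4.92). Of 7 gelatinase granule genes 1 was at least 2-fold higher, 2 were lower and 4 lay within 2-fold (median log2 ratio -0.077), and the 1 measured primary granule gene, Ctsc, was higher, with 188 UMIs in joint and 10 in blood. Retnlg, of the gelatinase list, which encodes a resistin-like protein made by neutrophils, had 36622 joint and 42188 blood UMIs, or 3970.3 and 15896 CPM (4.004-fold lower, interval 3.95 to 4.06), and was seen in 59.5% of thinned joint cells and 95.7% of thinned blood cells.

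For Lcn2, Mmp8, Ngp and Retnlg the level of healthy blood lay nearer the joint than arthritic blood did. Retnlg was at 4947 CPM in healthy blood, Lcn2 at 591 CPM and Ngp at 12.9 CPM. Ly6g, the antigen used in the sort, was at 71.1 CPM in joint, 217 CPM in arthritic blood (3.05-fold, interval 2.72 to 3.41) and 38.8 CPM in healthy blood. The share of cells with any UMI of Camp, Ngp or Ltf was 5.65% in joint, 11.0% in arthritic blood and 2.58% in healthy blood. Such shares depend on depth, and healthy blood cells were shallower, with a median of 2535.5 UMIs. S100a8 and S100a9, which together form calprotectin, were within 2-fold (82291 against 110850.0 CPM and 90434 against 138159 CPM).

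Besides Retnlg and Padi4, the 12 genes with the lowest ratios were of mixed roles. Xpc, a DNA damage sensor, was at 33.6 CPM in joint and 220.04 CPM in blood (6.55-fold lower, interval 5.70 to 7.54), and was seen in 2.90% and 19.1% of thinned cells. Asb7, a subunit of a ubiquitin ligase, was 5.55-fold lower (18.9 against 105 CPM), Rasgrp2, which activates the integrin switch Rap1, 4.06-fold lower (47.4 against 193 CPM), and Tkt, an enzyme of the pentose phosphate path, 3.56-fold lower (92.4 against 329 CPM). The other 6, Adam19, Bmx, Mtus1, AI467606, Tmem71 and Trp53inp1, were 3.53- to 3.96-fold lower. Among adhesion genes Itga4, an integrin subunit, was 3.44-fold lower (68.1 against 234 CPM), and Cd44 was 2.32-fold higher over all cells (log2 ratio 1.21), though in GN.Bl cells alone its direction turned, with a log2 ratio of -0.0868.

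**Figure D4:**
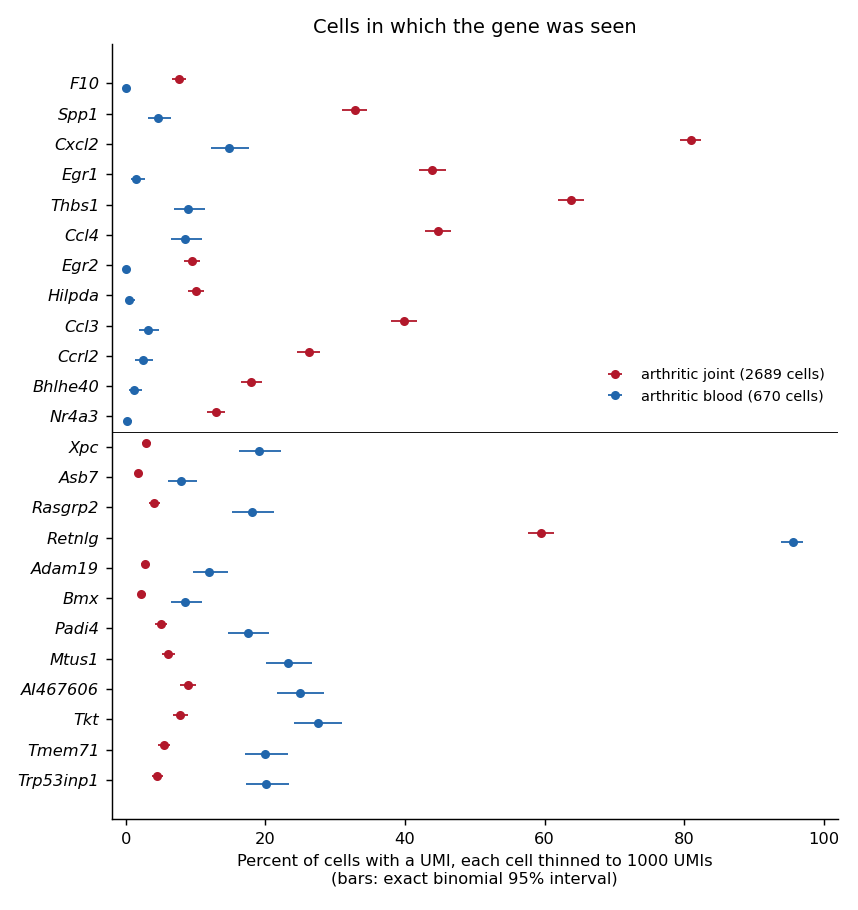
Share of cells with at least 1 UMI of the 12 genes with the highest and the 12 with the lowest ratio (above and below the line), with every cell thinned to 1000 UMIs, in 2689 joint and 670 blood cells. Points are shares and bars exact binomial 95% intervals, which cover counting error only. The genes were chosen by their ratio in the same counts, so their order is a description, with Cxcl2 at 80.9% against 14.8% and Retnlg at 59.5% against 95.7%.

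Of all measured genes, 4195 (79.2%) were within 2-fold. Of 82 cytosolic ribosomal protein genes 79 were within 2-fold, as were 66 of 68 nuclear genes of the respiratory chain, all 10 measured genes of the mitochondrial genome, and 28 of 29 proteasome genes. For actin and motility it was 25 of 29, and the 4 others were higher. Malat1, an abundant nuclear RNA, was at 22500.5 and 22536 CPM. Of 8 NADPH oxidase genes 7 were within 2-fold, and 1, Cybb, was 2.24-fold lower. Cybb was within 2-fold with cells weighted equally (log2 ratio -0.88), with thinned cells (log2 ratio -0.77) and in GN.Bl cells alone (log2 ratio -0.68).

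Of all 46 lists together, 700 of 943 genes were measured, of which 201 were at least 2-fold higher and 35 lower. Over all 5298 measured genes the shares were 14.4% higher and 6.44% lower. A list whose counts lie near these shares does not stand out from all genes. Some genes, such as Il1r2 and Cxcl10, stand in more than 1 list, so the lists are not separate results. Lists not described above with their counts of higher and lower genes were KLF and NR4A factors (5 and 0 of 9), glucocorticoid-responsive genes (5 and 2 of 10), proteases (4 and 1 of 8), adhesion and migration (5 and 3 of 16), surface markers of maturation (6 and 1 of 15), ageing markers (5 and 1 of 12), G-protein dampers (2 and 3 of 10), MHC class I (1 and 0 of 13), SOCS, STAT and PIM genes (2 and 0 of 12), Fc receptors (2 and 0 of 13), heat shock (3 and 0 of 12), complement (2 and 0 of 6), itaconate and arginine (2 and 0 of 4), eicosanoids (1 and 1 of 7), cell cycle (1 and 0 of 5) and noncoding RNAs (0 and 1 of 4).

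The authors' table assigns each cell to the closest ImmGen reference population. In joint, 79.0% of cells (2210 of 2796, interval 77.5% to 80.5%) were assigned to GN.Arth.SynF, granulocytes of arthritic synovial fluid, 9.05% to the blood population GN.Bl, 8.44% to GN.Thio.PC and 3.43% to GN.UrAc.PC, the last 2 being granulocytes of the inflamed peritoneal cavity. In blood, 0 of 802 cells were assigned to GN.Arth.SynF (exact upper limit 0.459%), 81.5% to GN.Bl, 15.5% to GN.UrAc.PC and 2.74% to GN.Arth.BM. The GN.UrAc.PC cells of blood had a median of 590.0 UMIs and those of joint 2761.

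Joint cells differed among themselves along these assignments, which were made from the same counts and are given as a description, in CPM without TMM scaling. Cxcl2 was at 8541 CPM in the GN.Arth.SynF cells of joint, 3772 CPM in GN.Thio.PC, 1433 CPM in the 253 joint cells assigned to GN.Bl and 158 CPM in the 654 blood cells of that population. Spp1 was at 2212, 1214, 167 and 37.5 CPM in the same order. The interferon-stimulated genes Rsad2 and Cxcl10 had another order, with Rsad2 at 556 CPM in GN.Arth.SynF, 4505 CPM in GN.Thio.PC, 3168 CPM in GN.UrAc.PC and 702 CPM in GN.Bl cells of joint. Cxcl10 was at 19.8, 1039, 350 and 30.9 CPM in that order. Ifitm2, the most abundant gene of that list, did not follow them, with 5420 CPM in GN.Arth.SynF, 3535 CPM in GN.Thio.PC, 4949 CPM in GN.UrAc.PC and 4374 CPM in GN.Bl cells of joint. F10 was highest in GN.Thio.PC (306 CPM) and Retnlg in GN.Bl (8312 CPM) among the 4 joint populations.

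**Figure D5:**
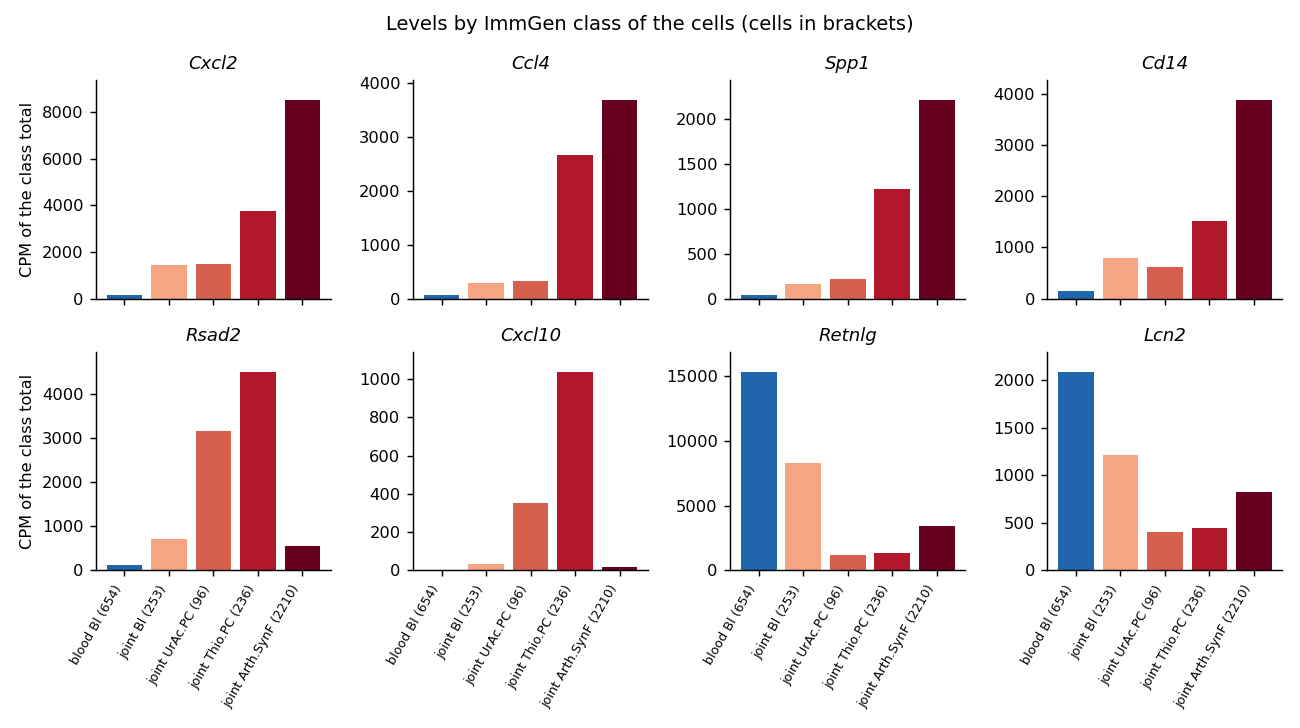
Levels of 8 genes (y axis, CPM of the total of the class, from 0) in blood cells assigned to GN.Bl and in joint cells by assigned ImmGen population, with the number of cells in brackets and 1 sum per bar. Cxcl2, Ccl4, Spp1 and Cd14 are highest in GN.Arth.SynF, Rsad2 and Cxcl10 in GN.Thio.PC, and Retnlg and Lcn2 are highest in blood.

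Cells of the GN.Bl population alone gave a smaller difference. The assignment was made from the same counts, so the 253 joint cells of this setting were those closest to the blood reference. Smaller ratios against blood thus follow in part from how these cells were picked. There, 232 genes were at least 2-fold higher in joint and 156 lower, of which 188 and 94 were among the 762 and 341 genes of all cells. In this setting Il1rn had a log2 ratio of 0.42 in place of 2.97, below the 0.62 of Il1b, while Il1r2 had 1.60 in place of 3.08. The order of Il1rn and Il1b thus turned. Cxcl3 had 0.56 in place of 3.63. Fth1 had a log2 ratio of 0.62 in place of 2.42, Csf1 of 0.67 in place of 3.53, and Cxcr4 of 0.34 in place of 1.66. Other genes named in the text that were past 2-fold over all cells and within 2-fold in this setting were Csf1, Hcar2, Hdc, Hif1a, Ccr1, Cd44, Cd74, Ctsc, Nfkbia, Nfkbid, Tnfrsf1b, Tgfbr1, C5ar1, Ctsd, Slc16a3, Cd80 and Il1b among the higher ones, and Adam19, Bmx, Mtus1, Trp53inp1, Mmp8, Ly6g, Clec12a, Ccl6, Hmgb2, Irf1, Gpi1, Gpx1 and Cybb among the lower ones.

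The IL-1 lavages against healthy blood share no cells with the comparison of joint and arthritic blood, though they are of the same library. Of the 762 genes higher in joint, 486 (63.8%) were also at least 2-fold higher in lung than in healthy blood, and these were 43.9% of the 1107 genes (20.9% of all measured) that were higher in lung. In peritoneum it was 466 (61.2%), which were 43.5% of the 1071 genes (20.2%) higher there. Of the 341 genes lower in joint, 216 (63.3%) were lower in lung, being 18.6% of the 1160 genes (21.9%) lower there, and 196 (57.5%) were lower in peritoneum, being 16.4% of 1192 genes (22.5%).

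Single genes did not all follow the shared direction. Retnlg was at 24158 CPM in lung and 13351 CPM in peritoneum, above the 4947 CPM of healthy blood, while in joint it was below arthritic blood. Cxcr4 was at 744 CPM in lung and 400.3 CPM in peritoneum beside 754 CPM in healthy blood and 2202 CPM in joint. Spp1 was at 142 CPM in lung and 146 CPM in peritoneum, against 2063 CPM in joint, and Csf1 at 380 and 446 CPM against 1502 CPM. Cxcl2 had its highest level in lung, at 19209 CPM. Between joint and the lavages the site, the stimulus and the time differ together and cannot be told apart, whereas lung and peritoneum shared the stimulus and the time.

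The genes that differed were also read in healthy bone marrow and blood, cells of the other libraries. In each of 2 runs, cells with at least 5 UMIs of neutrophil markers, and more of these than of markers of other types, were summed (1246 and 3610 marrow cells, 1466 and 3786 blood cells). These markers include Lcn2, Mmp8, Ngp, Ly6g, Retnlg and Il1b. Levels were CPM without TMM scaling, and the median gene had log2 ratios of marrow over blood of -0.466 and -0.386. Counts of marrow-high and blood-high genes are therefore not to be set against each other. Over 4281 genes measured there, 2.08% were at least 2-fold higher in marrow in both runs, as were 4.06% (20 of 493) of the genes higher in joint and 6.19% (18 of 291) of those lower in joint. Lcn2, Mmp8, Ngp and Ly6g were among the latter, with log2 ratios of marrow over blood from 1.21 to 4.42, while Retnlg had 0.47 and 0.97. Higher in blood than in marrow in both runs were 17.9% of all these genes, 26.8% of those higher in joint and 21.0% of those lower in joint, with Il1b and Fth1 among the former.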

How the data were processed

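UMI counts per gene symbol and cell were made by the authors with Cell Ranger on build mm10, as the submitters' processing notes and the study's methods state. The deposited counts of the inflammation library cover hashtag singlets, and the deposited table of cells gives each cell's hashtag condition, ImmGen population and cell cycle scores (G1, S and G2M, as computed by the authors). These scores were not used. The 3' libraries count 1 end of each transcript, so levels were compared between conditions and not per length. Spleen counts were not used here.

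Cells of GN populations with at most 5% mitochondrial UMIs and genes per cell within the 1st to 99th percentile of the library (325.5 to 1894.5 genes) were summed per condition. TMM factors came from edgeR 4.0.16 in R 4.3.3 with arthritic blood as reference, and ratios, exact conditional (Clopper-Pearson) intervals and thinning from Python 3.11 scripts with numpy and scipy. A compartment at 0 was set to 3 UMIs for its ratio. Ratios and intervals were checked on simulated counts. With 1 pool per condition no test was run, and edgeR was used for scaling only. Free RNA was not corrected, no doublet caller was run beyond the authors' hashtag singlets, and the inflammation library shared at most 1 cell barcode with any other library. Depth over all libraries used was 1968514 to 16390439 UMIs.

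Genes named were the 12 highest and 12 lowest ratios among genes at 100 CPM or more in the higher compartment, leaving out haemoglobin, immunoglobulin and mitochondrial genes, and, from 46 gene lists, members at 50 CPM or more with the highest or lowest ratio or the highest level, plus 12 defining genes of their pathways. Other members, picked after their values were seen, are named as examples of their list. There were 12 measured symbols that a spreadsheet had turned into dates, and these were not named. The comparison, the lists and the named genes were chosen with earlier results of these data known. Alternatives covered scaling, cell filters, cell weights, depth, maturity, ImmGen population and the limit on low genes.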

Additional observations from a re-analysis of the deposited data

How the results depend on the processing

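The counts of genes at least 2-fold higher and lower in joint stayed within 1.5 times of 762 and 341 under plain CPM, median-of-ratios factors, UMIs per cell, no cell filter, equal weight of cells, thinning, and leaving out cells with an early granule UMI or, chosen after seeing the data, with a macrophage or fibroblast UMI. They were 232 and 156 in GN.Bl cells alone, 1669 and 1375 over every gene with a UMI in both compartments, and 393 and 144 at a mean of at least 50 CPM. These settings hold fewer cells, more genes or fewer genes by construction. The joint cells of GN.Bl were also picked, by the same counts, for their likeness to the blood reference. Like counts did not mean the same genes. Thinning kept 663 of the 762 higher and 258 of the 341 lower genes, and equal weight of cells kept 673 and 296. The median log2 ratio joint over blood, all genes, was -0.0303 under plain CPM, 0.11 below the main value, and -0.0566 in GN.Bl cells, and list members higher in joint numbered 87 there in place of 201. The list median of ferritin and antioxidant genes was -0.13 in GN.Bl cells, against 1.01 in all cells. Of 98 genes named by the rule or as examples and past 2-fold, 97 kept their direction under each of the 9 alternatives of scaling and cells that gave them a value, and Cd44 turned, to -0.0868 in GN.Bl cells. Past 2-fold in all of these were 50. The call ended in GN.Bl cells only for 38 and in another setting for 10 (Adam8, C5ar1, Ccr1, Cybb, Dusp1, Gpx1, Il1b, Lilr4b, Rps27a and Sgk1). Ngp had 8 such values, since leaving out cells with its UMIs leaves it none.

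No paired analysis was possible because joint and blood each come from 1 pool in 1 library, and the run numbers of the labels pair only the healthy libraries. With 1 pool per condition the spread between mice is unknown. The blood sum of 2654015 UMIs limits genes at low level, and a gene within 2-fold is not shown to be unchanged.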
